A study of Mus musculus with 10 samples.

Results

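The liver metastases of RPR2 mice were compared with the lung tumors of the same genotype, in 5 of the 10 RNA sequencing libraries of the series and in 15451 of the 35288 genes of its table. RPR2 is the known name of a model in which small cell lung cancer arises in mice after deletion of Rb1, Trp53 and Rbl2, so lung tumors and metastases both carry these deletions, and neither group carries the floxed Nfib alleles of the other genotype. The metastases came from mice JHK1373 and JHK1394 (n = 2) and the lung tumors from JHK1373, JHK1394 and JHK1548 (n = 3), so 2 mice gave both tissues. Tumors were cut out at morbidity, each library is 1 dissected tumor with whatever host tissue it held, and the labels used here give neither the age of the mice nor the way the alleles were deleted. Lung tumors (n = 3) and metastases (n = 2) of the genotype RPR2;Nfibf/f (Nfib-floxed below) entered the same fit. They share its estimate of the spread, which every p-value uses, and serve to compare the tissue difference between genotypes. Values are TPM, a transcript level scaled to a fixed sum per library and corrected for transcript length. Library values follow in the order JHK1373, JHK1394 and JHK1548 for lung tumors and JHK1373, JHK1394 for metastases. Genes were kept where their mean over the 5 RPR2 libraries was at least 1 TPM. A gene under 1 TPM in lung tumors could pass this limit through the metastases alone, and the reverse. The limit itself can thus shape the counts and median of a list. The genes nearest this limit were Gpr75 (1.0013 TPM) and Trpv6 (1.0016) inside it and Cd27 (0.9998) and Epha4 (0.9988) outside it, and of the 19837 genes left out 11693 were at 0 in all 5 libraries.

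Small cell lung cancer is a neuroendocrine tumor of airway epithelium. Its cells carry neurogenic transcription factors, store peptides in secretory granules and release them as neurons do, and they also keep junctions, keratins and surface proteases of the epithelium they come from. Epithelial identity rests on E-cadherin junctions and on transcription and splicing factors such as the ESRP, GRHL and OVOL families, which the ZEB and SNAI repressors oppose. The liver, through its leaky sinusoids, is a common site of spread of this tumor.

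A gene was called where the change from lung tumors to metastases, on the log2(TPM + 1) scale, had a Benjamini-Hochberg adjusted p under 0.05 in limma. Of the 15451 genes, 939 (6.08%) were called, 358 (2.32%) higher and 581 (3.76%) lower in metastases, and 3016 had an unadjusted p under 0.05. Every list count below is to be read beside these shares. In all 939 the metastases did not overlap the lung tumors, as was so for 46.3% of all genes tested. The median change over all genes tested was -0.149, and single changes are given ± their standard error. Quantile normalization gave 464 rises and 444 falls, median centring 435 and 400. With mouse as a block, which compares tissues within JHK1373 and JHK1394, 545 genes were called. The 5 RPR2 libraries fitted alone gave 1184 calls, 820 of them among the 939. Leaving out 1 RPR2 library gave 356 calls (without the metastasis of JHK1394), 417 (without that of JHK1373) and 561, 616 and 677 without the lung tumors of JHK1394, JHK1373 and JHK1548. Over the 25 alternatives none of the 939 calls changed sign. As none of them overlapped, most alternatives (a library left out, another filter or pseudocount, the mouse block) could not have reversed a sign. Over the 162 named genes with a call, 62 calls held in all alternatives in which the gene was tested, and 82 were lost without the metastasis of JHK1373 and 82 without that of JHK1394. With so few libraries, the p-values measure the spread between these tumors, those of the Nfib-floxed genotype included.

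Nfib had 85.3, 28.3 and 118 TPM in RPR2 lung tumors, 62.8 and 643 TPM in RPR2 metastases, 38.6, 38.0 and 26.5 TPM in the Nfib-floxed lung tumors of JHK997, JHK1398 and JHK1399 and 46.1 and 41.3 TPM in the Nfib-floxed metastases of JHK1398 and JHK1399, and a level over the whole gene checks a partial deletion little. Both tissues held host cells. The 35 hepatocyte genes summed to 16179 and 17106 TPM in metastases and 519, 2195 and 1126 TPM in lung tumors, of which the lung values were highest in JHK1394. Hp, a member of this list, is also on the club cell list, and its part in these sums was not tested. Of the 358 genes higher in metastases, 202 were hepatocyte markers or had a symbol starting with a prefix of liver gene families. The remaining 156 were outside both sets. A prefix does not show that a gene is made mainly by liver. The share of such symbols among all genes tested is not given, so whether 202 is an excess cannot be read from it. The lung tumor of JHK1394 stood apart, with club cell genes at 62129.7 TPM against 9908 and 13304 in the other lung tumors, and alveolar type 2 genes at 8028 against 283 and 405. The metastasis of JHK1373 held 64959.6 TPM of erythroid genes and that of JHK1394 4142 TPM. In bulk tissue, fewer cells of a type and less RNA per cell cannot be told apart. Across all genes tested, which are not independent replicates, the 2 metastases correlated at 0.932 (Pearson's r) with each other and at 0.843 and 0.764 with the lung tumor of their own mouse, and lung tumors correlated at 0.904 to 0.948 with each other.

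**Figure D1:**
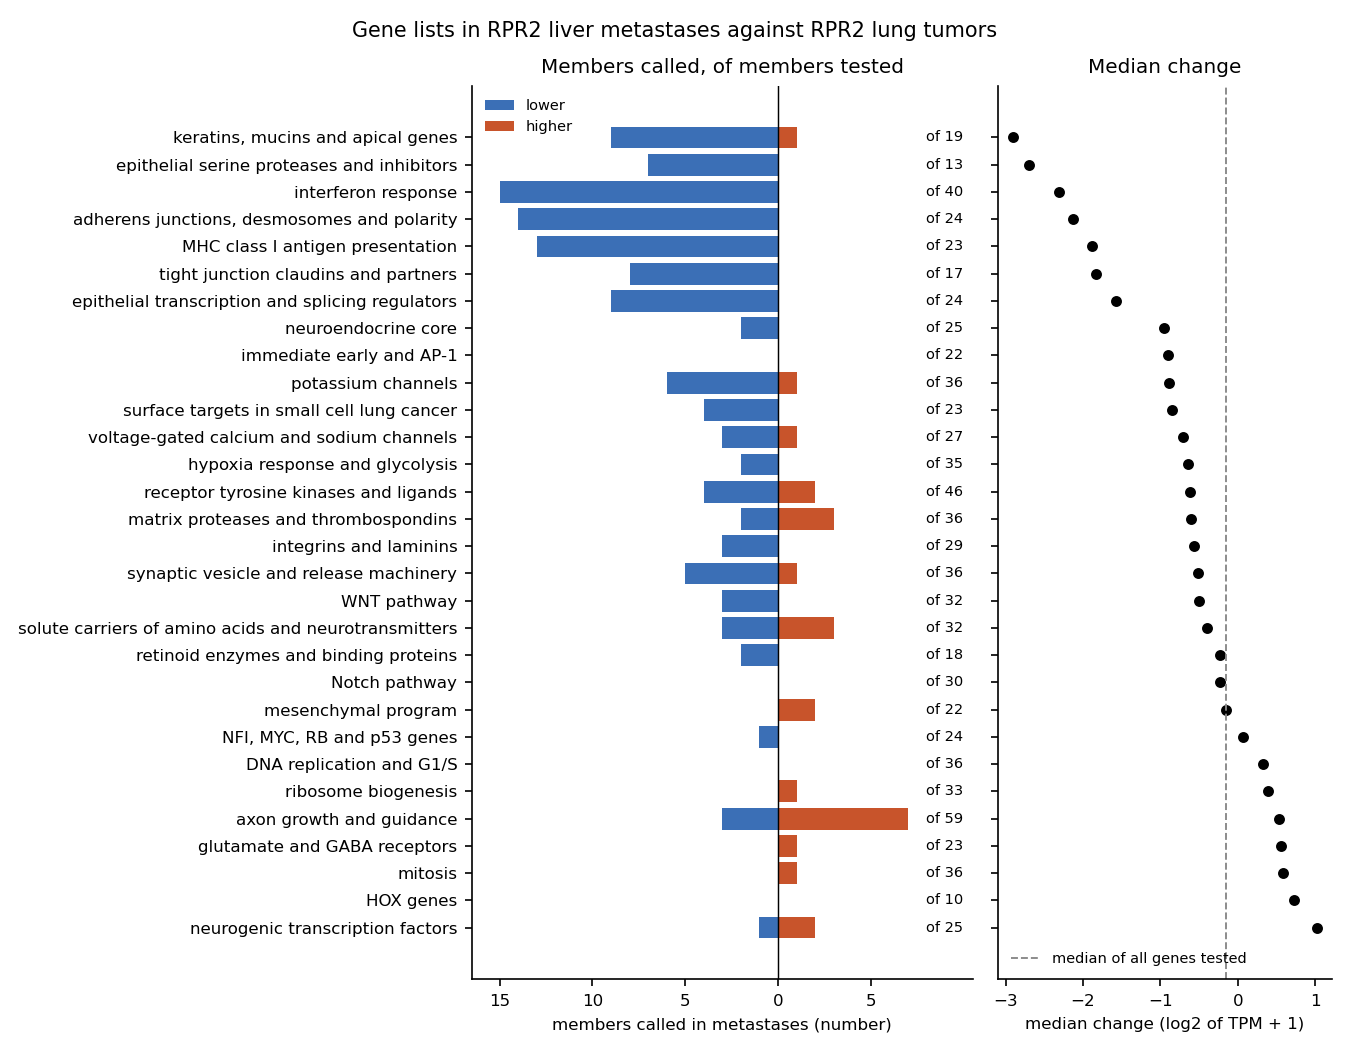
Gene lists in RPR2 metastases (n = 2) against RPR2 lung tumors (n = 3). Left, the number of members called lower (blue) and higher (orange), with the number tested; right, the median log2 change of the members tested, with the median of all genes, -0.149, as a dashed line. The 5 epithelial lists, interferon response and MHC class I antigen presentation had 7 to 15 members lower each. Neurogenic transcription factors had the highest median, 1.02, over the 25 of 54 members that passed the 1 TPM limit.

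Many genes of epithelial adhesion, polarity, splicing and keratins were lower in RPR2 metastases than in lung tumors. The 5 epithelial lists name 106 genes, of which 96 were tested: 46 (47.9%) fell in metastases, 1 rose and 49 were not called, against 3.76% and 2.32% of all genes. These lists were chosen with earlier results of these data known, so the share describes them and is not an independent test. Their median change was -2.17, and 87 of 96 had a negative change. Leaving out 1 RPR2 library left 31 to 43 falls, the fewest without either metastasis, and the mouse block left 40. Cdh1 (ENSMUSG00000000303, GRCm38 chromosome 8, 106603351 to 106670246, plus strand), which encodes E-cadherin, stood at 446, 426 and 270.2 TPM in lung tumors and 5.46 and 5.20 TPM in metastases. Every lung tumor lay far above both metastases, and within mice the change was -6.11 in JHK1373 and -6.11 in JHK1394 (fitted change -5.88 ± 0.34, adjusted p = 3.14e-05, held in 25 of 25 alternatives). Epcam, a homophilic adhesion protein, kept a higher level, with 736, 733 and 674 TPM in lung tumors and 85.8 and 93.2 TPM in metastases (-2.98 ± 0.33, adjusted p = 0.00117). The level of Epcam in metastases was above that of Cdh1 in both libraries, and its tissues did not overlap either.

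For 11252 of the 15451 genes tested, RefSeq promoter sequences were at hand, and for 30 of the 46 epithelial genes that fell. They were searched over the 250 bases before the start for CACCTG and its reverse complement CAGGTG, an E-box of the kind that ZEB and SNAI repressors are known to bind, a motif chosen after the falls had been seen. It occurred at least 1 time in 16 of the 30 (53.3%), in 112 of the 400 genes that fell and had a promoter (28%) and in 1768 of all 11252 (15.7%). Epithelial genes that were not called were not counted, so the motif cannot be tied to the falls apart from epithelial promoters as such. No promoter was at hand for Cdh1. For promoters whose RefSeq start lay within 500 bases of the annotated start, the counts were 13 of 26, 97 of 347 and 1546 of 9900. The 5 windows printed here are those of Tspan1, Muc1, Ap1m2, Rab25 and Epcam, which hold 2 to 4 matches each and whose RefSeq start lies 0 to 21 bases from the annotated gene start (RefSeq, GRCm38.p6; 5′ to 3′ on the gene's strand, matches in capitals). They lie at chr4:116167599-116167848 (minus strand), chr3:89228806-89229055 (plus), chr9:21312334-21312583 (minus), chr3:88548280-88548529 (minus) and chr17:87635729-87635978 (plus).
Tspan1: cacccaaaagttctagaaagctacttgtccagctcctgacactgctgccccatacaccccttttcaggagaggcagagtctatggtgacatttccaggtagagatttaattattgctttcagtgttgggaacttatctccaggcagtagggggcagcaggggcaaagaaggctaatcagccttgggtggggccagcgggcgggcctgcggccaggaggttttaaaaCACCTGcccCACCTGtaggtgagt
Muc1: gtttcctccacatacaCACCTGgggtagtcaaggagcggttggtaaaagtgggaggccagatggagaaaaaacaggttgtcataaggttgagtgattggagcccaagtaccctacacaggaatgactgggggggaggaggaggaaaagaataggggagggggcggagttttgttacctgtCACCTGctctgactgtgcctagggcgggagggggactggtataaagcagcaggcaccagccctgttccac
Ap1m2: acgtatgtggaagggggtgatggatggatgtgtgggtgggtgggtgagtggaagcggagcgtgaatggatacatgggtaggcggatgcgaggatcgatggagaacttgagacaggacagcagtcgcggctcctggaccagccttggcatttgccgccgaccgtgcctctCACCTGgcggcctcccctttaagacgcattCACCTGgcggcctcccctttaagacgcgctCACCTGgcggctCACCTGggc
Rab25: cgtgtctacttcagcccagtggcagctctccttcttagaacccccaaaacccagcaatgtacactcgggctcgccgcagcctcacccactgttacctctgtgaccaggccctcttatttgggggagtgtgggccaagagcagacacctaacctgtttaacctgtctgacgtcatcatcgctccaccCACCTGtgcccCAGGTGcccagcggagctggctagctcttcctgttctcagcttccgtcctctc
Epcam: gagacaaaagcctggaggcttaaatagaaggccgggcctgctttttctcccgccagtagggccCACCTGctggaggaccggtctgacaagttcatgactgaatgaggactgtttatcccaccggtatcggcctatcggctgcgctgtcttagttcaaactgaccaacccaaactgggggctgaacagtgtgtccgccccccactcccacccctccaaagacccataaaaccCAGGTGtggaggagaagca
The windows show how close together such letters can lie, as in Tspan1, Ap1m2 and Rab25, while those of Muc1 and Epcam are far apart. A match describes the sequence only, and binding was not measured.

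Of 24 genes of adherens junctions, desmosomes and polarity, 14 fell (median -2.13; 8 to 13 without 1 RPR2 library, 8 without the metastasis of JHK1394). Dsp, the desmosomal plaque protein desmoplakin, had 82.3, 79.2 and 56.4 TPM in lung tumors and 2.98 and 2.91 TPM in metastases (-4.20 ± 0.43, adjusted p = 0.000635). Pkp3, another plaque protein, went from 31.5, 30.6 and 19.6 to 1.24 and 0.507 TPM (-3.91 ± 0.51, adjusted p = 0.00242). Both metastases were low for both genes, and no library overlapped. Rab25 (ENSMUSG00000008601, chromosome 3, 88542029 to 88548300, minus strand), a GTPase of apical recycling, had 79.1, 99.4 and 64.9 TPM in lung tumors and 1.04 and 1.62 TPM in metastases. Crb3, the Crumbs polarity protein, had 67.7, 95.9 and 59.1 TPM in lung tumors and 2.30 and 2.08 TPM in metastases. These 4 calls held in all 25 alternatives. Mal2, a gene of apical trafficking, fell less, from 68.2, 76.3 and 54.8 to 13.1 and 15.52 TPM (-2.13 ± 0.33).

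Claudins and their partners seal the space between epithelial cells. Of 17 such tight junction genes 8 fell (median -1.83; 4 without the metastasis of JHK1373, and 5 both without the other metastasis and under median centring). Cldn7 (ENSMUSG00000018569, chromosome 11, 69964779 to 69967885, plus strand) fell most, from 318, 377 and 175 TPM to 2.61 and 2.30 TPM (-6.32 ± 0.46, adjusted p = 0.000126). Cldn3 had 233, 532 and 221 TPM in lung tumors and 15.51 and 30.7 TPM in metastases. Cldn6 had 68.3, 72.0 and 17.4 TPM in lung tumors and 0.283 and 0.778 TPM in metastases. Lung tumors differed among themselves for these 2 genes, JHK1394 being high for Cldn3 and JHK1548 low for Cldn6, but all lay above both metastases, and both calls were lost without the metastasis of JHK1373. Ocln, the occludin gene, went from 41.8, 47.0 and 25.8 to 4.45 and 1.92 TPM. F11r, the junctional adhesion molecule A, went from 123, 176 and 128 to 19.0 and 35.8 TPM. The plaque genes Tjp3 (-1.83 ± 0.35) and Cgn (-1.67 ± 0.36) passed the threshold by less, and with the mouse block their adjusted p were 0.0979 and 0.11. Cldn18 (9.14, 64.3 and 7.14 TPM in lung tumors, 0 and 0.183 in metastases) was mostly in the lung tumor of JHK1394, where alveolar markers were highest, and their part in this result was not tested.

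Surface serine proteases and their inhibitors fell in 7 of 13 (median -2.70; 6 or 7 without 1 RPR2 library). St14 (matriptase), Prss8 (prostasin) and related proteases act in a cascade on epithelial surfaces, and Spint1 and Spint2 encode its inhibitors. St14 had 194, 189.8 and 118 TPM in lung tumors and 2.59 and 7.08 TPM in metastases. The related protease gene Tmprss4 had 100.5, 78.5 and 72.4 TPM in lung tumors and 1.42 and 1.16 TPM in metastases (-5.20 ± 0.34, adjusted p = 5.28e-05). Proteases and inhibitors were both lower in both metastases. Spint1 went from 128, 244 and 114 to 1.97 and 2.56 TPM (-5.56 ± 0.54). Spint2 went from 641, 901 and 494 to 102 and 98.5 TPM (-2.70 ± 0.40), so it kept the higher level of the 2 inhibitors. These 4 calls held in all 25 alternatives.

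Among 24 epithelial transcription and splicing regulators 9 fell (median -1.57; 5 without the metastasis of JHK1373, 6 without the other). Esrp1 (chromosome 4, 11331933 to 11386783, minus strand) and Esrp2 direct epithelial splicing. Esrp1 had 141, 103 and 107 TPM in lung tumors and 1.60 and 1.69 TPM in metastases (-5.47 ± 0.47, adjusted p = 0.000299). Esrp2 had 72.4, 64.0 and 58.7 TPM in lung tumors and 3.99 and 4.82 TPM in metastases (-3.61 ± 0.33). The ETS factor gene Ehf went from 71.7, 83.7 and 42.6 to 1.69 and 0.929 TPM. All lung tumors lay far above both metastases for these 3 genes. Elf3, another ETS factor, had 192, 159 and 114 TPM in lung tumors and 7.33 and 25.98 TPM in metastases. The metastases were not alike in Elf3, JHK1394 being the higher. Ovol2, a repressor of Zeb1 in epithelia, went from 13.1, 13.7 and 13.1 to 0.485 and 1.35 TPM, a call lost without the metastasis of JHK1373. Ovol1 went from 9.75, 15.3 and 5.51 to 0.130 and 0.283 TPM, a call lost without either metastasis. Grhl1 fell (-1.96 ± 0.41), with adjusted p = 0.1 under the mouse block.

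Keratins, mucins and apical genes fell in 9 of 19 and rose in 1 (median -2.90; 7 to 9 falls without 1 RPR2 library). Krt8, a keratin of simple epithelia, had 944, 1040.5 and 592 TPM in lung tumors and 74.1 and 107 TPM in metastases (-3.21 ± 0.41). Its partner Krt18 had 729, 968 and 493 TPM in lung tumors and 87.4 and 99.4 TPM in metastases (-2.90 ± 0.43), so both kept levels near 100 TPM. Krt7 fell further, from 683, 686 and 470.4 to 17.5 and 51.6 TPM (-4.28 ± 0.44). The transmembrane mucin gene Muc1 had 107, 222 and 101 TPM in lung tumors and 0.623 and 3.25 TPM in metastases. The tetraspanin gene Tspan1 had 258, 199.9 and 195 TPM in lung tumors and 1.55 and 2.75 TPM in metastases. Ap1m2, a subunit of the epithelial clathrin adaptor, had 86.1, 81.5 and 60.6 TPM in lung tumors and 0.932 and 0.624 TPM in metastases. All 3 were high in each lung tumor and under 4 TPM in each metastasis. The 1 rise was Tm4sf4 (0.280, 0.794 and 0.565 TPM in lung tumors, 58.6 and 45.8 in metastases), a gene known from liver and pancreas.

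**Figure D2:**
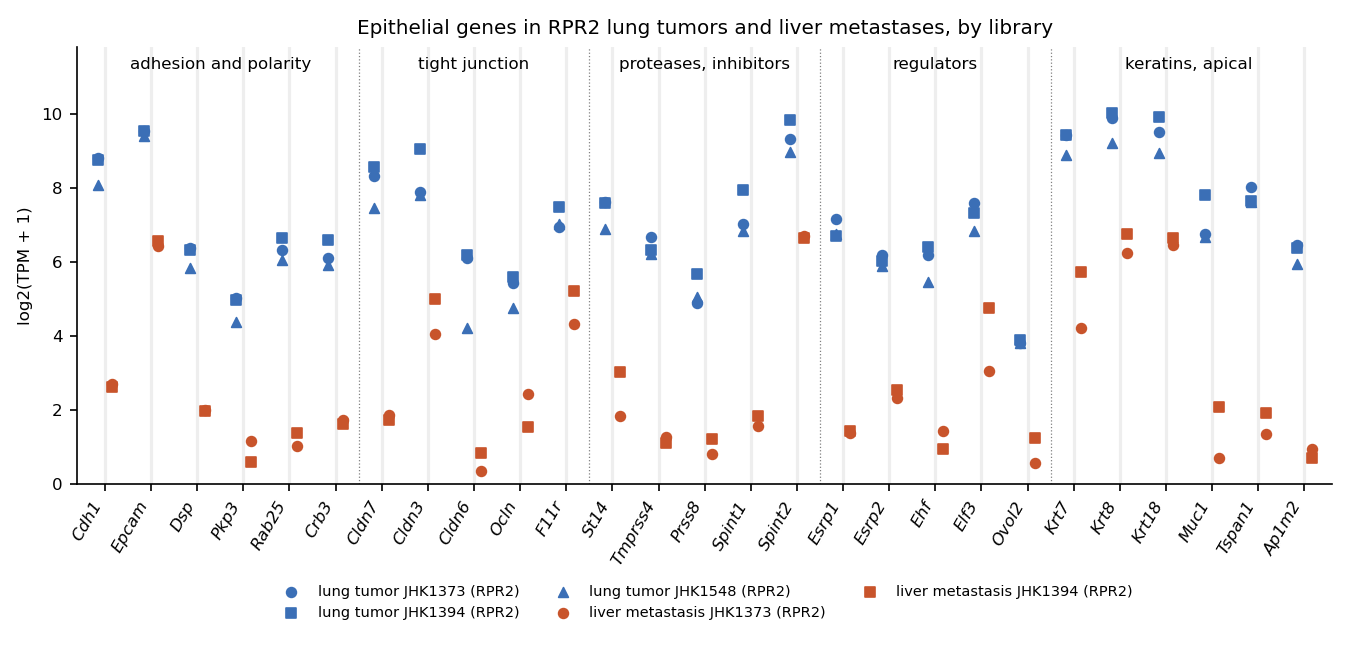
Level of 27 epithelial genes as log2(TPM + 1) in each RPR2 library; blue symbols are the 3 lung tumors, orange symbols the 2 metastases, and the symbol shape gives the mouse. In every gene shown both metastases lie below all 3 lung tumors; Cdh1 is at 270.2 TPM or more in lung tumors and under 6 TPM in metastases.

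Of the 22 members of the mesenchymal list tested 2 (Zeb1 and Snai2) rose, against 2.32% of all genes, and 20 were not called, with a median of -0.16 beside -0.149 over all genes. Zeb1, a repressor of Cdh1, had 12.7, 6.596 and 12.2 TPM in lung tumors and 39.6 and 43.7 TPM in metastases (1.94 ± 0.50, adjusted p = 0.0482). Snai2, another repressor of Cdh1, had 1.08, 3.26 and 1.25 TPM in lung tumors and 9.99 and 9.80 TPM in metastases (2.00 ± 0.50, adjusted p = 0.0397). Neither gene's libraries overlapped between tissues, and the lung tumor of JHK1394 was the lowest for Zeb1 and the highest of the lung tumors for Snai2. Both calls lay near the threshold. With the mouse block the adjusted p were 0.0977 and 0.153, Zeb1 was lost without any 1 of the 5 RPR2 libraries, and Snai2 without any but the lung tumor of JHK1394 (largest adjusted p 0.253 and 0.179). Zeb2 (0.05 ± 0.68, 95% interval -1.45 to 1.54), Snai1 (-0.11 ± 0.52, -1.26 to 1.04) and the N-cadherin gene Cdh2 (0.13 ± 0.44, -0.83 to 1.09) were not called. Vim, the vimentin gene, had 48.3, 419.9 and 101 TPM in lung tumors and 46.4 and 68.9 TPM in metastases, the tissues overlapping and JHK1394 being the highest (-1.16 ± 0.75, -2.81 to 0.49). The intervals of Vim and Zeb2 include changes of more than 1 log2 unit. Twist1, Twist2 and Foxc2 were below the 1 TPM limit.

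Of 25 neuroendocrine genes tested 2 fell, against 3.76% of all genes, and the median was -0.95. The falls numbered 6 in a fit of the 5 RPR2 libraries alone, 4 with the mouse block, none without the metastasis of JHK1373 or the lung tumor of JHK1394, and 1 without each of the others in turn. In 15 of the 25 both metastases lay below every lung tumor, as was so for 30.8% of all genes. Syp, the vesicle protein synaptophysin, had 159, 187 and 108 TPM in lung tumors and 60.5 and 74.5 TPM in metastases (95% interval -2.35 to 0.10). Chga, the granule protein chromogranin A, had 775, 249 and 379 TPM in lung tumors and 126 and 369 TPM in metastases (-2.37 to 0.46). The adhesion gene Ncam1 had 34.3, 18.6 and 32.0 TPM in lung tumors and 28.5 and 60.1 TPM in metastases (-0.31 to 1.47). None of these 3 was called, and for Chga and Ncam1 the tissues overlapped. Genes of peptide processing and granules gave the 2 calls. Pcsk1, a prohormone convertase, fell from 435, 596 and 330.0 to 26.8 and 122 TPM (-2.92 ± 0.69, adjusted p = 0.0325). Resp18, a granule protein, fell from 567, 1033 and 411 to 112 and 68.4 TPM (-2.82 ± 0.58, adjusted p = 0.0174). Calca, the precursor of calcitonin and CGRP, stood at 18196, 9162 and 11505 TPM in lung tumors and 545 and 1410.0 TPM in metastases, with no overlap and adjusted p = 0.0941. The lung lineage factors Nkx2-1 (-0.08 ± 0.49) and Foxa2 (-0.44 ± 0.27) were not called.

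Neurogenic transcription factors had the highest list median of the 30 programs, 1.02, with 2 of 25 higher and 1 lower. The list names 54 genes, of which these 25 passed the 1 TPM limit. Some, such as Isl2, passed it only through the metastases, so the limit itself can raise this median and its rank. Neurod4, a proneural factor, had 7.04, 2.53 and 8.71 TPM in lung tumors and 24.2 and 38.3 TPM in metastases (2.27 ± 0.51, adjusted p = 0.0253, 0.0835 with the mouse block). The motor neuron factor gene Isl2 had 0, 0.0753 and 0.173 TPM in lung tumors and 5.17 and 5.08 TPM in metastases (2.50 ± 0.38, adjusted p = 0.00499, 0.0579 with the block). Each metastasis exceeded each lung tumor for both genes, and the Neurod4 call was lost without either metastasis or the lung tumor of JHK1394. Id4, an inhibitor of basic helix-loop-helix factors, fell from 259, 252 and 271 to 41.1 and 22.01 TPM (-3.07 ± 0.39, adjusted p = 0.00219, held in 25 of 25). The lung tumors were nearly alike for Id4. Neurod1 was below the 1 TPM limit.

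Of 59 axon growth and guidance genes tested 7 rose and 3 fell, against 2.32% and 3.76% of all genes, with a median of 0.53. The share of falls was near that of all genes. Without 1 RPR2 library the rises numbered 4 to 6 and the falls 0 to 2, and under median centring 11 rose. Ephrin receptors steer growing axons, and 3 of them rose. Epha5 had 0.620, 0.153 and 1.07 TPM in lung tumors and 11.3 and 15.6 TPM in metastases (3.19 ± 0.43, adjusted p = 0.00303). Epha7 had 0.195, 0.307 and 0.424 TPM in lung tumors and 7.99 and 7.49 TPM in metastases (2.74 ± 0.41). Epha3 had 0.422, 0.513 and 0.438 TPM in lung tumors and 7.97 and 2.85 TPM in metastases (2.01 ± 0.44, adjusted p = 0.0242, 0.138 with the mouse block). All 3 were near 1 TPM or lower in every lung tumor. They, and others such as Dcx, passed the 1 TPM limit only through the metastases. The limit itself can therefore raise the number of rises and the median of this list. Lingo1, a receptor that limits axon growth, went from 1.18, 0.543 and 2.15 to 28.9 and 50.0 TPM (4.15 ± 0.62). Dcx, a microtubule protein of migrating neurons, went from 0.179, 0.472 and 0.643 to 8.34 and 26.1 TPM (3.49 ± 0.65). The metastasis of JHK1394 was the higher of the 2 for both genes, and without it the Dcx call was lost. Gap43, the growth cone protein, went from 2.97, 4.72 and 4.72 to 30.3 and 34.1 TPM (2.71 ± 0.60, adjusted p = 0.0242, 0.0777 with the block). The tau gene Mapt, named after its value was seen, went from 20.0, 5.002 and 10.95 to 47.3 and 97.4 TPM (adjusted p = 0.0482). Among the falls, Ntn4, a netrin of basement membranes, had 151, 213 and 146 TPM in lung tumors and 38.5 and 32.0 TPM in metastases, a call lost without the metastasis of JHK1394. Nrcam, a neuronal adhesion protein, fell by 2.02 (0.0565 with the block), and Robo1, a Slit receptor named after its value was seen, went from 61.8, 101 and 42.4 to 29.0 and 8.30 TPM (adjusted p = 0.0457).

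Genes of the synaptic vesicle and release machinery fell in 5 of 36 and rose in 1 (1 to 3 falls without 1 RPR2 library, 2 with the mouse block). Slc18a1, the vesicular monoamine transporter of endocrine cells, had 123, 72.7 and 87.9 TPM in lung tumors and 8.45 and 2.28 TPM in metastases (-4.07 ± 0.59, adjusted p = 0.004, held in 25 of 25). Syt5, a synaptotagmin, went from 27.5, 25.9 and 22.7 to 2.51 and 1.46 TPM (-3.16 ± 0.63), a call lost without either metastasis or the lung tumor of JHK1394. Rab3b, Pclo and Unc13b, which prepare vesicles for release, fell by 2.67, 2.27 and 2.07, with adjusted p of 0.0887, 0.124 and 0.115 under the block. The rise was Cplx1, complexin 1, from 1.20, 1.46 and 2.61 to 43.4 and 49.9 TPM (4.14 ± 0.84), also lost without either metastasis or the lung tumor of JHK1394. Among 23 glutamate and GABA receptor genes, Grik2 (ENSMUSG00000056073, chromosome 10, 49094833 to 49788766, minus strand), a kainate receptor subunit, was the 1 called. It was at 0.290, 0.328 and 0.179 TPM in lung tumors and 29.5 and 24.02 TPM in metastases (4.45 ± 0.38, adjusted p = 0.000299, held in 25 of 25). Within mice its change was 4.56 in JHK1373 and 4.24 in JHK1394. The receptor list names 44 genes, of which 23 passed the 1 TPM limit, Grik2 only through the metastases.

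**Figure D3:**
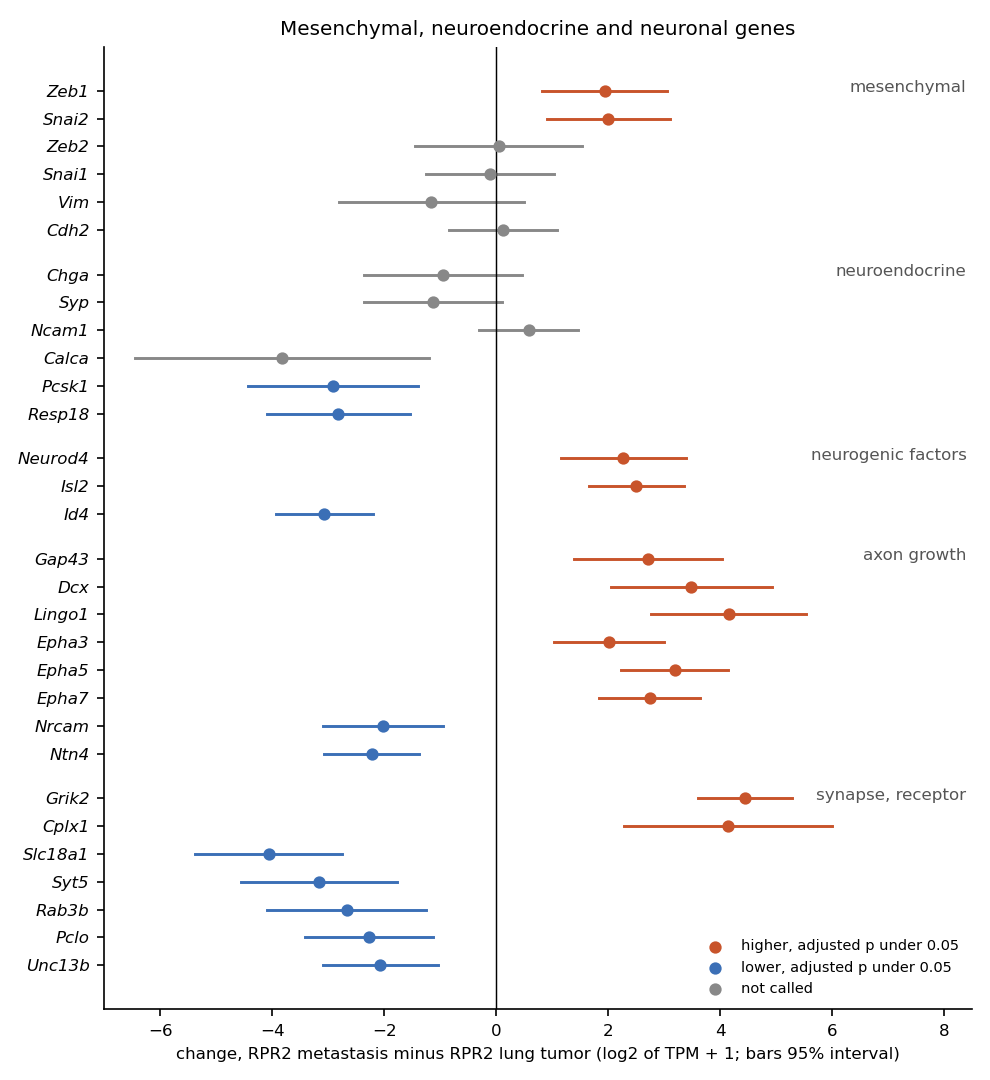
Fitted change from RPR2 lung tumors (n = 3) to RPR2 metastases (n = 2) on the log2(TPM + 1) scale, with 95% intervals from limma, for mesenchymal, neuroendocrine and neuronal genes; orange and blue mark genes called higher and lower, grey those not called. Chga, Syp, Ncam1, Zeb2, Snai1, Vim and Cdh2 have intervals that cross 0, whereas Grik2 lies at 4.45 and Slc18a1 at -4.07.

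Potassium channels set the resting potential of excitable and epithelial cells. Of 36 such genes 6 fell and 1 rose (median -0.88; 4 to 6 falls without 1 RPR2 library). Over all genes tested, 3.76% fell and 2.32% rose. Kcnip1, a subunit of A-type channels, had 24.8, 33.2 and 25.2 TPM in lung tumors and 0.266 and 0.334 TPM in metastases (-4.45 ± 0.47, adjusted p = 0.000836). Kcnh6, an ERG channel, had 52.8, 52.9 and 45.0 TPM in lung tumors and 7.27 and 9.33 TPM in metastases (-2.47 ± 0.31, adjusted p = 0.00219). The leak channel gene Kcnk1 had 145, 205 and 153 TPM in lung tumors and 15.6 and 35.8 TPM in metastases. Kcnq1, a channel of epithelia and heart, went from 17.1, 33.5 and 13.8 to 0.417 and 0.669 TPM. These 4 calls held in all 25 alternatives. The other leak channels Kcnk2 (-2.85 ± 0.45, adjusted p = 0.0537 with the mouse block) and Kcnk3 (-3.42 ± 0.68) fell as well, both lost without the metastasis of JHK1373. Kcnj3, a G protein-gated inward rectifier, rose from 4.24, 4.36 and 4.04 to 20.6 and 26.04 TPM (2.21 ± 0.44, adjusted p = 0.0142, 0.102 with the block). Of 27 sodium and calcium channel genes 3 fell and 1 rose, and without the metastasis of JHK1373 or the lung tumor of JHK1394 none fell or rose. The epithelial sodium channel subunit Scnn1a had 83.0, 203 and 66.4 TPM in lung tumors and 2.17 and 14.8 TPM in metastases. Scnn1g, its partner, had 5.06, 30.8 and 5.64 TPM in lung tumors and 0.0188 and 0.114 TPM in metastases. Both were highest in the lung tumor of JHK1394. Scn7a went from 21.0, 21.4 and 12.1 to 0.629 and 0.835 TPM (-3.43 ± 0.70). The neuronal sodium channel gene Scn1a rose from 1.002, 0.165 and 0.693 to 4.77 and 9.24 TPM (2.28 ± 0.50, 0.101 with the block).

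Ret, the receptor for GDNF family ligands (ENSMUSG00000030110, chromosome 6, 118151745 to 118197718, minus strand), was lower in both metastases than in any lung tumor. Its level was 128, 110.4 and 93.0 TPM in lung tumors and 3.09 and 1.96 TPM in metastases (-4.99 ± 0.30, adjusted p = 3.14e-05, held in 25 of 25). Of the 46 receptor tyrosine kinase and ligand genes 4 fell and 2 rose, against 3.76% and 2.32% of all genes. Without 1 RPR2 library 1 to 3 fell, the fewest without the lung tumor of JHK1394, and none rose except 3 without the metastasis of JHK1373. The growth factor gene Igf2 had 159, 279 and 204 TPM in lung tumors and 2.78 and 45.8 TPM in metastases, which were unlike (-3.98 ± 0.78). Erbb3, a neuregulin receptor, went from 23.8, 35.4 and 15.1 to 4.04 and 1.54 TPM. The calls of Igf2, Erbb3 and Egfr (-2.25 ± 0.58, adjusted p = 0.0488) were lost without the lung tumor of JHK1394. Fgfr4, a receptor of hepatocytes, rose from 3.05, 0.687 and 1.55 to 20.3 and 23.3 TPM, beside the higher hepatocyte markers, whose part was not tested. Ngfr, the p75 neurotrophin receptor, rose from 0.183, 0.318 and 0.858 to 2.58 and 16.3 TPM with adjusted p = 0.0479, and 0.103 with the mouse block. Without any 1 RPR2 lung tumor neither rise was called.

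Retinaldehyde dehydrogenases, among them Aldh1a3, make retinoic acid. Of 18 genes tested on the retinoid list 2 fell, Aldh1a3 and its family member Aldh1a7, against 3.76% of all genes. Aldh1a3 had 143, 186 and 23.5 TPM in lung tumors and 1.51 and 1.73 TPM in metastases (-5.06 ± 0.74). Aldh1a7 had 565, 475 and 429 TPM in lung tumors and 26.4 and 23.4 TPM in metastases (-4.24 ± 0.39). JHK1548 was the lowest lung tumor for both, and both calls held in every alternative run. Aldh1a7 is also on the club cell list, which summed higher in lung tumors, and the part of club cells in its fall was not tested. Of 32 WNT genes Notum (-3.19 ± 0.77), Fzd6 (-1.67 ± 0.43) and Lrp5 (-1.41 ± 0.36) fell, in 12 of 25, 10 of 25 and 9 of 25 alternatives, and the last 2 had adjusted p of 0.115 and 0.088 with the mouse block. Without either metastasis, or without the lung tumor of JHK1373 or JHK1394, none was called. No Notch pathway gene of 30 was called in limma (2 at an unadjusted p under 0.05, both lower).

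Among 36 matrix protease and thrombospondin genes 3 rose and 2 fell, and without either metastasis 1 rose and none fell. Among all genes tested, 2.32% rose and 3.76% fell. Adamts10, a protease of microfibrils, had 3.80, 7.17 and 7.83 TPM in lung tumors and 51.3 and 72.0 TPM in metastases (3.14 ± 0.55). Thbs4, a thrombospondin, had 2.54, 9.61 and 3.66 TPM in lung tumors and 95.6 and 68.9 TPM in metastases (3.88 ± 0.85). Both metastases exceeded all lung tumors, and both calls were lost without either metastasis. Mmp16, a membrane metalloprotease, rose to 2.95 and 2.66 TPM from 0.138, 0.0414 and 0 TPM (0.144 with the mouse block). Thbs1 had 127, 74.6 and 19.9 TPM in lung tumors and 2.08 and 2.51 TPM in metastases. The inhibitor gene Timp3 had 34.6, 124 and 34.2 TPM in lung tumors and 7.91 and 6.62 TPM in metastases. These falls were lost without either metastasis or without the lung tumor of JHK1373 or JHK1394. Integrin and laminin genes fell in 3 of 29, among them Itga3 and Itgb5, and none was called without the metastasis of JHK1373 or the lung tumor of JHK1394.

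Of 32 transporters of amino acids and neurotransmitters 3 rose and 3 fell, against 2.32% and 3.76% of all genes. Without the metastasis of JHK1394 1 rose and 1 fell, and without that of JHK1373 2 rose and 1 fell. Slc6a15 (ENSMUSG00000019894, chromosome 10, 103367783 to 103419377, plus strand), a neutral amino acid carrier of neurons, had 1.98, 2.34 and 2.12 TPM in lung tumors and 44.0 and 44.0 TPM in metastases (3.84 ± 0.46, adjusted p = 0.00159, held in 25 of 25). Slc38a4, a carrier of liver and placenta, went from 0.529, 2.99 and 0.890 to 26.3 and 11.5 TPM (0.117 with the mouse block). The metastases were nearly equal for Slc6a15 and differed for Slc38a4. The proline carrier gene Slc6a20a fell from 20.8, 39.6 and 13.2 to 0.466 and 0.356 TPM (-4.05 ± 0.49, adjusted p = 0.00167). The glycine carrier gene Slc6a9 fell by 2.00 (0.0707 with the block) and Slc36a1 by 1.84. Of 23 surface proteins pursued as drug targets in this cancer 4 fell, among them Epcam, Muc1 and Nectin4 (2 without either metastasis). Nectin4, a nectin adhesion protein, had 9.27, 19.6 and 6.61 TPM in lung tumors and 0.451 and 1.18 TPM in metastases, and its call was lost without either metastasis or the lung tumor of JHK1394. The Notch ligand gene Dll3, another of them, had 27.3, 19.4 and 21.6 TPM in lung tumors and 27.2 and 33.3 TPM in metastases, overlapped and was not called (95% interval -0.55 to 1.35).

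Genes of the interferon response, which cells switch on against viruses and cytosolic nucleic acids, had a negative change in 40 of 40, and 15 fell (median -2.31 beside -0.149). Oasl1 had 20.1, 18.3 and 15.52 TPM in lung tumors and 1.85 and 1.34 TPM in metastases. Ifih1, an RNA sensor, had 22.97, 40.4 and 18.1 TPM in lung tumors and 3.27 and 2.90 TPM in metastases. Usp18, a brake on interferon signalling, had 35.9, 99.4 and 59.2 TPM in lung tumors and 5.25 and 5.15 TPM in metastases. For Ifih1 and Usp18 the lung tumor of JHK1394 was the highest library, for Oasl1 that of JHK1373. The whole list summed to 1052, 3748 and 1830.0 TPM in lung tumors and 349 and 342 TPM in metastases, so every lung tumor stood above both metastases. The number of falls was 5 without the lung tumor of JHK1394, 0 without the metastasis of JHK1394 and 3 without the other one. It was 8 without the lung tumor of JHK1548 and under median centring, 18 without that of JHK1373 and 7 with the mouse block.

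MHC class I molecules present peptides to T cells. Their genes had a negative change in 23 of 23, and 13 fell (median -1.89). B2m, the light chain, had 2305, 6294 and 3405 TPM in lung tumors and 964 and 547 TPM in metastases (-2.34 ± 0.53, adjusted p = 0.0278, 0.0874 with the mouse block). The heavy chain gene H2-K1 had 877, 1827 and 1151 TPM in lung tumors and 319 and 212 TPM in metastases (0.0551 with the block). Tap1, the peptide transporter, went from 76.5, 119.8 and 126 to 31.6 and 13.6 TPM (0.0702 with the block). The metastasis of JHK1394 was the lowest library in all 3. H2-M3 went from 35.7, 54.0 and 28.5 to 6.33 and 6.01 TPM (-2.45 ± 0.37, held in 25 of 25). Without the metastasis of JHK1394 1 member was called, without that of JHK1373 5, and without the lung tumors of JHK1373, JHK1394 and JHK1548 9, 4 and 6. The count was 3 with the block and 2 under median centring. Near-identical class I copies share reads, so single H2 levels are uncertain. Macrophage and monocyte genes, cells in which both programs are known to be active, summed to 893, 6008 and 1711 TPM in lung tumors and 941 and 421 TPM in metastases, with 18 of 19 changes negative and Ms4a7 called. B and plasma cell genes (7 of 7 negative) and T and NK cell genes (8 of 10 negative) had no call in limma, with 2 and 1 at an unadjusted p under 0.05. Their part in the falls was not tested.

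Proliferation genes had mostly positive changes. Of 36 mitosis genes 35 were positive (median 0.58), and Birc5, survivin, was the 1 called. It had 136, 67.1 and 154 TPM in lung tumors and 349 and 283 TPM in metastases (1.48 ± 0.37, adjusted p = 0.0401, 0.0666 with the mouse block). In DNA replication and G1/S 32 of 36 were positive (median 0.32) and none was called, with 5 at an unadjusted p under 0.05. E2f2 was nearest, with 93.2, 43.0 and 77.2 TPM in lung tumors and 239.6 and 170.1 TPM in metastases (1.56 ± 0.43, adjusted p = 0.0576). Among 33 ribosome biogenesis genes 28 were positive and Gnl3, nucleostemin, rose (1.21 ± 0.27, 0.157 with the block). Hypoxia and glycolysis genes were negative in 32 of 35. Ankrd37, a hypoxia target, fell from 79.6, 54.3 and 101 to 18.2 and 15.2 TPM (-2.13 ± 0.33), a call lost without the metastasis of JHK1394, and Aldoa, aldolase A, by 1.38 (0.142 with the block).

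Of 24 NFI, MYC, RB and p53 genes 1 was called, against 6.08% of all genes. It was the cell cycle inhibitor Cdkn2b, with 15.55, 31.6 and 21.0 TPM in lung tumors and 3.16 and 2.66 TPM in metastases (0.104 with the mouse block). Nfib, the nuclear factor whose alleles are floxed in the other genotype, was highest by far in the metastasis of JHK1394. Nfix, its family member, had 8.99, 15.8 and 18.8 TPM in lung tumors and 41.4 and 172 TPM in metastases (adjusted p = 0.169). Mycl, an oncogene of this cancer, had 149, 106 and 141 TPM in lung tumors and 482 and 166 TPM in metastases, and Mycn had 1.43, 3.30 and 8.64 TPM in lung tumors and 8.08 and 38.9 TPM in metastases. Metastases differed from each other for Nfib, Nfix, Mycl and Mycn, Mycl being higher in JHK1373 and the others in JHK1394. None of 10 HOX genes was called in limma, with 3 at an unadjusted p under 0.05. Hoxb8, a patterning factor, had 27.9, 20.4 and 24.9 TPM in lung tumors and 73.6 and 353 TPM in metastases (adjusted p = 0.0835).

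The largest rises among genes of no liver family or cell type list were, in order of change, Tm4sf4, Dbn1, Tub, Grik2, Tro, Lingo1, Cplx1, Mettl7b, Fndc4, Leap2, Thbs4, Slc6a15, Nxf3, Gjb1 and Lypd1. Dbn1 (ENSMUSG00000034675, chromosome 13, 55473429 to 55488111, minus strand), the actin-binding protein drebrin, had 2.88, 1.85 and 4.99 TPM in lung tumors and 67.6 and 148 TPM in metastases (4.64 ± 0.54, adjusted p = 0.00134, held in 25 of 25). Fndc4, a fibronectin domain protein, had 1.76, 1.99 and 2.66 TPM in lung tumors and 48.8 and 54.5 TPM in metastases (4.08 ± 0.48, held in 25 of 25). Tub, the tubby gene, went from 0.698, 0.760 and 1.55 to 65.0 and 30.8 TPM. Every metastasis lay above every lung tumor for these, but Tm4sf4, Tub, Tro, Cplx1, Leap2 and Thbs4 lost their calls without either metastasis, and Tro and Leap2 had adjusted p of 0.0697 and 0.0717 with the mouse block. In 4 of the 15 the Nfib-floxed metastasis of JHK1399 also lay above all Nfib-floxed lung tumors. Leap2, a peptide made by liver, stood at 0 and 17.4 TPM in the Nfib-floxed metastases of JHK1398 and JHK1399. Tm4sf4 stood at 1.15 and 30.4 TPM, Mettl7b at 0.0962 and 4.37 TPM, and Gjb1, connexin 32 of hepatocytes, at 0.840 and 3.94 TPM in these 2 libraries. Hepatocyte genes summed to 241 TPM in JHK1398 and 4727 TPM in JHK1399. The 4 genes were picked for their level in JHK1399, so their match with this sum is not independent of the choice. The origin of the 4 was not tested. The other 11 did not exceed all Nfib-floxed lung tumors in the metastasis of JHK1399, among them Slc6a15 (0.375 and 0.178 TPM) and Dbn1 (5.76 and 4.35 TPM).

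The largest falls among genes of no liver family or cell type list were Cldn7, Tspan1, Cdh1, Sprr1a, R3hdml, Mapk13, Ano9, Muc1, Klk1, Retnla, Spint1, Upk3a, Prr15l, Esrp1 and Ap1m2. R3hdml, a secreted protein, had 228, 229.7 and 209 TPM in lung tumors and 2.53 and 3.93 TPM in metastases, nearly the same value in each lung tumor (-5.74 ± 0.33, adjusted p = 3.14e-05). Mapk13, the p38 delta kinase, went from 324, 227 and 159 to 3.18 and 3.39 TPM. Ano9, of the anoctamin family, went from 166, 74.6 and 109 to 1.01 and 1.32 TPM. These 3 calls held in all 25 alternatives. Klk1 (40.4, 207 and 62.7 TPM in lung tumors), Retnla (17.8, 227 and 62.4) and Upk3a (27.3, 201 and 39.3) were highest in the lung tumor of JHK1394. Their calls and that of Sprr1a, a cornified envelope protein, were lost without either metastasis, and Klk1 and Retnla had adjusted p of 0.059 and 0.0543 with the mouse block.

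Markers of host cells were counted in the same fit. Of 35 hepatocyte genes 30 rose (9 to 28 without 1 RPR2 library, 9 without the metastasis of JHK1394). Gc, a plasma vitamin D carrier, had 2.199, 8.72 and 10.1 TPM in lung tumors and 608 and 643 TPM in metastases. Kupffer cell genes rose in 3 of 8 (Clec4f, Vsig4 and Cd5l) and sinusoidal endothelium genes in 2 of 9 (Clec4g and Oit3), and 1 of each list without the metastasis of JHK1373. Clec4f, the lectin that marks Kupffer cells, went from 0.0549, 0.204 and 1.28 to 23.1 and 24.9 TPM. On the lung side 5 of 8 club cell, 2 of 11 alveolar type 2, 3 of 12 alveolar type 1 and 3 of 9 ciliated cell genes fell. Without either metastasis no alveolar or ciliated gene was called, and 3 club cell genes were called without that of JHK1373. Without the lung tumor of JHK1373 the counts were 6, 4, 1 and 2, without that of JHK1394 5, 1, 1 and 2, and without that of JHK1548 5, 2, 4 and 1. Scgb1a1, the defining club cell gene, stood at 7539.9, 54787 and 9650.1 TPM in lung tumors and 12.04 and 172 TPM in metastases. The surfactant gene Sftpb stood at 89.1, 1418 and 85.2 TPM in lung tumors and 0 and 4.64 TPM in metastases. Both were highest in the lung tumor of JHK1394 and lowest in the metastasis of JHK1373. Vwf, the clotting factor of endothelium, fell from 638, 522 and 623 to 16.8 and 19.8 TPM (-4.95 ± 0.57, adjusted p = 0.00134). None of the other 11 general endothelial genes was called (2 of the 12 had an unadjusted p under 0.05), and their sum was 99.6, 151 and 93.3 TPM in lung tumors and 83.5 and 92.5 TPM in metastases. Libraries were also rescaled after removal of all cell type genes and all symbols with a liver family prefix. Then 575 genes were called (132 higher and 443 lower), and 41 of 87 epithelial genes tested fell. The removal itself took out 202 of the 358 genes called higher, so the lower number of rises does not show an effect of the rescaling.

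**Figure D4:**
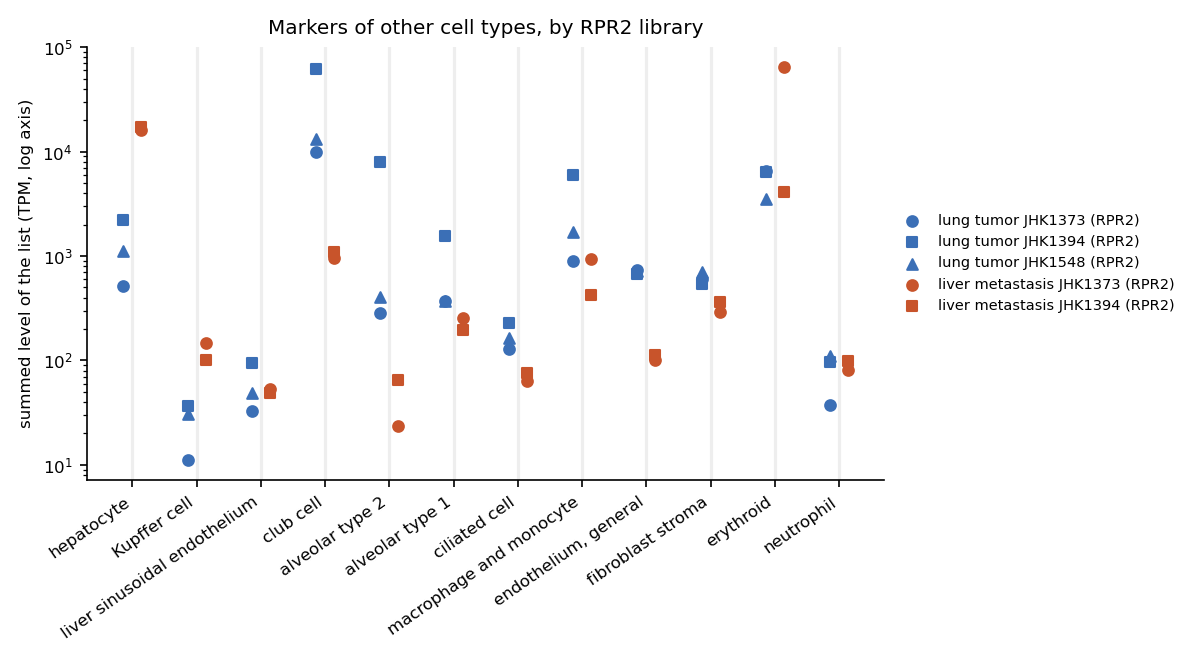
Summed level, in TPM on a log axis, of the marker lists of 12 other cell types in each RPR2 library; blue symbols are lung tumors, orange symbols metastases, and the shape gives the mouse. Hepatocyte genes are highest in the 2 metastases (16179 and 17106 TPM), club, alveolar and macrophage genes in the lung tumor of JHK1394, and erythroid genes in the metastasis of JHK1373.

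The tissue difference was then set against that in Nfib-floxed mice, as the RPR2 change minus the Nfib-floxed change in the same fit. The Nfib-floxed metastasis of JHK1398, 1 of the 2 that set the metastasis level of that genotype, correlated at 0.933 (Pearson's r across genes) with the RPR2 lung tumor of JHK1373, at 0.919 with the other Nfib-floxed metastasis and at 0.813 with the lung tumor of its own mouse. Its label was kept as given, and whether it is right was not tested. Of 15451 genes 96 (0.621%) differed, 76 more negative and 20 more positive in RPR2, and 95 of them were among the 939. The count was 13 with the mouse block, and ranged from 25 (without the RPR2 lung tumor of JHK1373) to 156 (without the Nfib-floxed metastasis of JHK1399) when 1 library was left out. It was 35 without the Nfib-floxed metastasis of JHK1398, 53 without the RPR2 metastasis of JHK1373, 30 without its counterpart of JHK1394, 46 without the Nfib-floxed lung tumor of JHK1399, and 30 and 40 without the RPR2 lung tumors of JHK1394 and JHK1548. Of the 96 epithelial genes tested 19 were in it. Cdh1 had 249.7, 209 and 366 TPM in the Nfib-floxed lung tumors of JHK997, JHK1398 and JHK1399 and 236 and 352 TPM in the metastases of JHK1398 and JHK1399 (difference between genotypes -5.99 ± 0.48, adjusted p = 0.000655). Ret had 68.5, 54.7 and 61.1 TPM in those lung tumors and 109 and 81.3 TPM in those metastases (difference -5.60 ± 0.42, adjusted p = 0.000655). Tissues of this genotype overlapped for Cdh1, and Ret was higher in both metastases. Grik2 had 0.108, 0.223 and 0 TPM in Nfib-floxed lung tumors and 0.0667 and 0.0528 TPM in metastases (difference 4.51 ± 0.54, adjusted p = 0.00667). Adamts10 had 7.29, 22.96 and 6.34 TPM in Nfib-floxed lung tumors and 1.25 and 1.80 TPM in metastases (difference 5.31 ± 0.78, adjusted p = 0.0189), the lower level being in metastases. Without the Nfib-floxed metastasis of JHK1398 the differences were -6.28 for Cdh1, -5.40 for Ret, 4.52 for Grik2 and 5.15 for Adamts10, and that of Adamts10 was no longer called (adjusted p = 0.0778).

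Not every epithelial fall passed this test. For Muc1 the difference between genotypes was -3.74 ± 0.98 (adjusted p = 0.18). Pkp3 had 38.4, 48.1 and 25.6 TPM in Nfib-floxed lung tumors and 4.75 and 15.4 TPM in metastases, which lay lower in that genotype too (difference -1.97 ± 0.72, adjusted p = 0.339). Zeb1 (1.69 ± 0.71, adjusted p = 0.453), B2m (-1.49 ± 0.75, adjusted p = 0.575) and the club cell gene Scgb1a1 (0.28 ± 2.14, adjusted p = 0.989) did not pass it either. A p that misses the threshold does not show that the genotypes were alike, and with 2 metastases a genotype the standard error of these differences was large.

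**Figure D5:**
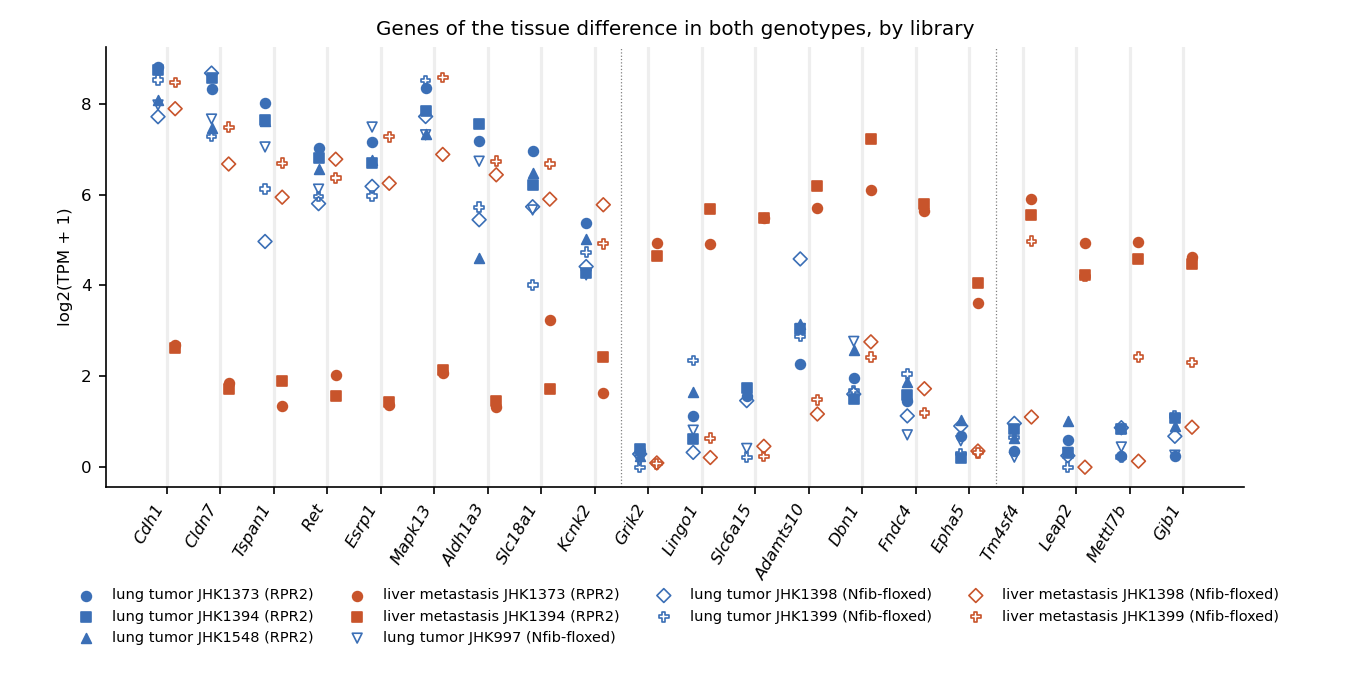
Level of 20 genes as log2(TPM + 1) in all 10 libraries; filled symbols are RPR2, open symbols Nfib-floxed, blue lung tumors and orange metastases, with the shape giving the mouse. In the first 9 genes the 2 filled orange symbols lie below all others, in the remaining 11 above all others, and in the last 4 the Nfib-floxed metastasis of JHK1399 also lies above the Nfib-floxed lung tumors.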

How the data were processed

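RNA was measured in 10 libraries of 6 mice, from tumors dissected at morbidity and snap-frozen, with poly(A) selection and a NEBNext Ultra II kit, per the labels' protocols. The authors deposited 1 table of TPM per gene. Salmon 0.12.0, bcl2fastq 2.20, R 4.1.0 and the build GRCm38 are named in the submitters' processing notes. Annotation version, settings and strand: not given in the sources used here. Reads of antisense partners therefore cannot be told apart from those of a gene. TPM keeps no depth, each library sums to 1000000, and the depth of each library is unknown, so no counting interval can be given. Host content takes up part of that fixed sum.

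From these values log2(TPM + 1) was tested with limma 3.58.1 in R 4.3.3 (4 groups in 1 fit, variance trend and moderation, residual df 6, prior df 4.53, two-sided, Benjamini-Hochberg over 15451 genes), and the script was tested on simulated data. Metastasis minus lung tumor of the same mouse gives the within-mouse change. Lung tumor and metastasis of 1 mouse are pairs by the mouse names in the labels; in the 4 mice with both tissues, the deviations of the 2 libraries had correlations of -0.024, -0.009, 0.043 and 0.051. Members and the 54 gene lists (1271 symbols, of which 3 are not in the table) were chosen with earlier results of these data known. Of the listed symbols 1059 were tested and 209 lay below the filter. Named genes are the 15 largest rises and falls with at least 5 TPM in the higher group outside cell type lists and 240 prefixes of liver gene families, up to 8 members of each program list and 3 of each cell type list past the threshold, and a fixed set of lineage genes. The gene nearest the threshold in a list without calls was taken by the same rule. Alternatives were 2 other pseudocounts, other filters and scalings, other fits and libraries left out. A few listed genes enter the counts but are not reported singly here. Promoters came from RefSeq (GRCm38.p6). Tables and figures were made in Python 3.11.15 (pandas 2.3.3, numpy 2.4.6, matplotlib 3.10.9, scipy 1.17.1).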

Additional observations from a re-analysis of the deposited data

Results flagged for a closer look

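The values here are differences between genotypes on the log2(TPM + 1) scale. Each is the change from lung tumors to metastases in RPR2 minus that in Nfib-floxed mice. All had an adjusted p under 0.05 in limma's interaction test, which compared 4 group means over 10 libraries without pairing by mouse. Of the genes reported here 42 passed this test. Of these, 34 differences were negative and 8 positive, and 18 genes were epithelial. The fitted change in Nfib-floxed mice ran from -2.17 to 1.15 over the 42 genes. It was positive for 18 of the 34 genes with a negative difference and negative for 6 of the 8 with a positive one, so a difference here need not be a larger change of the same sign. Without the Nfib-floxed metastasis of JHK1398 21 of the 42 passed, and all 42 differences kept their sign. In adhesion, polarity and tight junctions the differences were Cdh1 -5.99, Cldn7 -5.53, Rab25 -4.57, Dsp -4.40, Crb3 -3.83, Ocln -3.69 and Epcam -3.41. Among surface proteases and their inhibitor they were Tmprss4 -5.04, Spint1 -4.91, St14 -4.82 and Prss8 -3.57. Regulators gave Esrp1 -5.68, Ehf -5.27 and Esrp2 -3.13. Keratin and apical genes gave Tspan1 -6.40, Ap1m2 -5.23, Krt7 -4.55 and Krt8 -3.16.

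Other negative differences were R3hdml -5.78, Aldh1a3 -5.67, Mapk13 -5.62, Ret -5.60, Ano9 -5.54 and Aldh1a7 -5.02. The monoamine transporter Slc18a1 differed by -5.22, the proline carrier Slc6a20a by -3.98 and the endothelial gene Vwf by -4.49. Channels gave Kcnk2 -3.74, Kcnip1 -3.72, Kcnh6 -2.87 and Kcnk1 -2.78. Id4 differed by -3.03, Ntn4 by -2.91 and Ankrd37 by -2.75.

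The positive differences were Adamts10 5.31, Lingo1 4.89, Grik2 4.51, Slc6a15 4.19, Dbn1 4.08, Fndc4 3.91, Epha5 3.45 and Epha7 3.05. Of these, Grik2, Epha5 and Epha7 passed the 1 TPM limit only through the RPR2 metastases, so the limit itself can favor such differences. With mouse as a block 13 genes of the whole table passed this test in place of 96. Whether other genes differ between genotypes cannot be read from their absence here.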

How the results depend on the processing

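None of the 939 calls changed sign in any of the 25 alternatives, most of which could not reverse the sign of genes without overlap. Called genes numbered 939 (358 higher, 581 lower), and the split moved with scaling: 464 and 444 with quantile normalization, 435 and 400 with median centring, which shift the median of all genes from -0.149 to 0.052 and 0.095, 389 and 392 with a pseudocount of 5 and 408 and 314 with no filter. A filter of 5 TPM gave 207 higher. Rescaling without cell type genes and symbols with a liver family prefix gave 575 called, 132 of them higher. That removal took out 202 of the 358 genes called higher before any test. Array weights gave 2065 called, 623 higher, 1442 lower and 148 differing between genotypes. With mouse as a fixed replicate block the paired fit gave 545 called, 195 higher, 350 lower and 13 differing between genotypes, and 45 of 162 named calls were lost, those given in the text; mouse as a random block lost none. Leaving out 1 library gave 356 to 1237 called, 174 to 393 higher, 180 to 844 lower and 25 to 156 differing between genotypes, the lone metastasis being assumed to vary like the other groups. Without both libraries of JHK1398 the values were 1273, 410, 863 and 38, and without the lung tumors of JHK1394 and JHK1398 19 genes differed between genotypes. Leaving out either metastasis lost 82 of the 162 named calls, and the lung tumors of JHK1394, JHK1373 and JHK1548 55, 38 and 34. The causes were not tested. TPM keeps no depth, so low values could not be weighed by counts.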

Other observations

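Y-linked transcripts were not alike in the tissues of JHK1394. Eif2s3y stood at 80.0 TPM in its lung tumor and 10.2 TPM in its metastasis, and Ddx3y at 28.5 and 5.10 TPM. In the other 3 RPR2 libraries Eif2s3y was at 0.960 (metastasis of JHK1373), 0.509 and 0.759 TPM (lung tumors of JHK1373 and JHK1548). Results that compare the tissues within JHK1394 rest on its mouse label.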
